A study of Homo sapiens with 15 samples.

Results

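The 39 HOX genes of the human genome were followed through cardiac differentiation of H1 cells. The members were all protein-coding genes of the HOXA, HOXB, HOXC and HOXD clusters, chosen by name and not by any measured value, and all 39 were found among the 48777 genes of the deposited tables. HOXA holds 11 members on chromosome 7, HOXB 10 on chromosome 17, HOXC 9 on chromosome 12 and HOXD 9 on chromosome 2. By paralog number, 8 members are anterior (numbers 1 to 3), 15 are central (4 to 8) and 16 are posterior (9 to 13).

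HOX genes encode homeodomain transcription factors that give cells their position along the head-to-tail axis. Within a cluster the genes lie in the order of their paralog numbers, and in the embryo those with low numbers are switched on earlier and further forward than those with high numbers. HOXB1 is known from the mesoderm that adds cells to the inflow and outflow ends of the heart, and Wnt and retinoic acid signals are known inducers of the anterior genes.

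H1 is an established human embryonic stem cell line, so all libraries come from 1 genetic background. Cells were grown on the laminins LN-521 and LN-221, were treated first with CHIR99021, which activates Wnt signalling by inhibiting GSK3, and then with IWP2, which blocks Wnt secretion. Bulk RNA-seq of total RNA was available for days 0, 4, 9, 11 and 20, each with 3 biological replicates, which makes 15 libraries. The day 0 libraries are undifferentiated cells, for which the deposited sample table names LN-521 alone while the labels name both laminins. The protocols place the CHIR99021 step either at day 4 for a day or at days 1 and 3, so it cannot be told from the labels whether the day 4 cells had met it. Replicates are named here by the plate in their label, and 1 library of day 9 carries no plate. The plate 6 labels of days 9 and 20 carry a further suffix, which is left out here.

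Library totals lay between 11990302 and 33469703 counts, and replicates correlated between r = 0.876 and 0.990 on log2 counts scaled to library size. The day 9 to 20 libraries came from 3 sequencing lanes per day. Markers of pluripotent cells summed to between 4624 and 6651 TPM on day 0 and to between 66.6 and 108 TPM on day 20, while 6 cardiac muscle genes summed to at most 13.4 TPM on day 0 and to between 4826 and 21362 TPM on day 20. TPM is a level scaled for gene length and library size. A library of day 20, labelled plate 2_3, stood apart. Its RNA integrity number was 6.1 against 8.8 and 9.7 in its replicates, and it held counts for 48230 genes against 34602 and 39551. The main day 20 results are given below with and without it.

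The promoter of HOXB1, the member with the highest mean level over days 9 to 20 (53.1 TPM), is shown because this gene had the highest level on day 9 and was the 1 member called lower later. The 250 bases before its RefSeq start lie at chr17:48531012-48531261 on the minus strand of GRCh38.p14, directly before the gene, and are printed in the direction of transcription. Capitals mark a PBX-HOX site, which PBX and anterior HOX proteins bind together, and a CCAAT box on the opposite strand.

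HOXB1: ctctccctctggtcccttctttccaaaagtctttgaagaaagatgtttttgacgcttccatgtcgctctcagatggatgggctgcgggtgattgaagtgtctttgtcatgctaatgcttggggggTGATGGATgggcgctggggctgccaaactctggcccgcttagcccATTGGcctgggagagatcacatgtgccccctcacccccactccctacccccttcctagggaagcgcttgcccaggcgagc

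The PBX-HOX letters, TGATNNAT on either strand, began 125 bases before the start. They were found in 3 of the 20 members with a promoter in the RefSeq table (HOXA2, HOXB1 and HOXD11) and in 6.47% of all 35116 promoters. CCAAT on either strand lay in 17 of these 20 members and in 32.0% of all promoters. The TCF letters CTTTGA, the element through which Wnt signalling acts, lay in 3 of the 20 (HOXA10, HOXB1 and HOXD12) and in 11.2% of all promoters, whereas AGGTCA, the half-site of retinoic acid receptors, lay in 0 of 20 and in 12.1% of all. The other promoters of the HOXB cluster were not analysed here. These matches describe letters only.

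The HOX clusters were close to silent in undifferentiated cells and on day 4. Over the 3 libraries of day 0, 10 members held any count and the 39 members together held 22 counts, against 72657287 counts in all. On day 4, 8 members held 31 counts together. The highest count of any member in a library was 5 on day 0 and 6 on day 4, both of HOXB3, and no level passed 0.246 TPM. A count of 0 over 3 libraries allows up to 0.0413 CPM (counts scaled to library size) on day 0 and 0.0380 CPM on day 4, at 3 counts as the floor, which covers counting error only. No member passed the filter on low counts for the comparison of day 4 with day 0, so 0 of 39 were tested by edgeR. DESeq2, which tested 14 of them, called 0 higher and 0 lower. Among all genes, 0.0% were higher and 0.0% lower on day 4 at an adjusted p under 0.05.

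**Figure D1:**
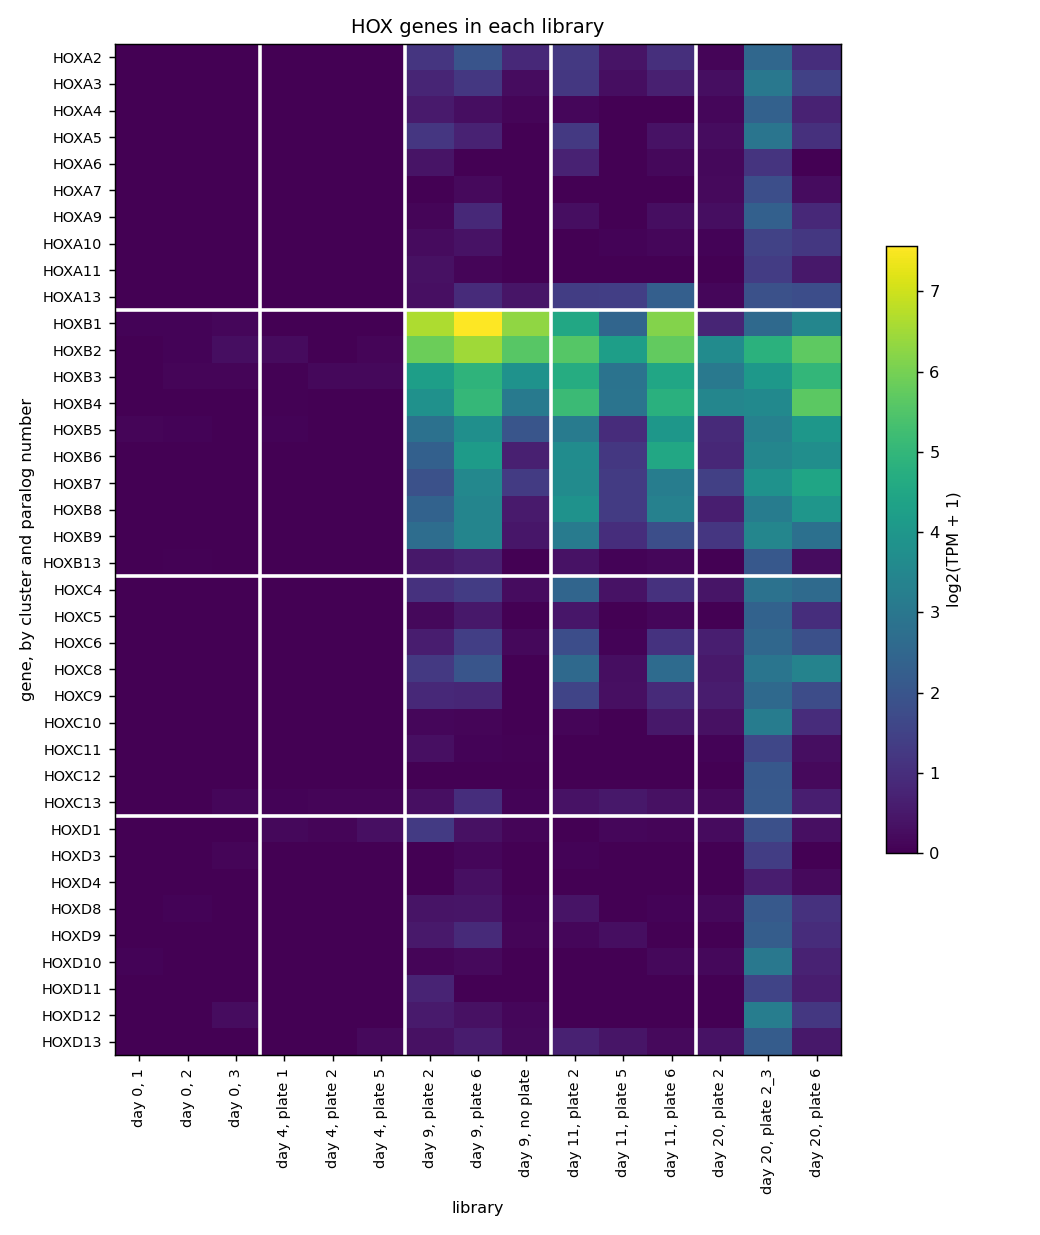
Level of 38 of the HOX genes (rows, by cluster and paralog number) in each of the 15 libraries (columns), as log2(TPM + 1). Days 0 and 4 are near 0 throughout, HOXB1 to HOXB4 are the brightest rows on day 9, and the day 20 library of plate 2_3 shows some level of every gene drawn.

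Transcripts of the anterior HOXB genes were abundant by day 9. The 39 members then held 13466 counts over 3 libraries, and 9 of them were detected, meaning at least 10 counts in each of the 3 libraries. HOXA2 and HOXB1 to HOXB7 were among them. By position, 5 were anterior, 4 central and 0 posterior. HOXB transcripts made up between 90.3% and 96.9% of the summed HOX TPM of a library. Of the 39 members, 8 passed the filter in the comparison of day 9 with day 4, and they could pass only through day 9. All 8 were higher on day 9 by edgeR's quasi-likelihood test (adjusted p between 3.50e-06 and 0.00825, two-sided, adjusted over all genes tested), where 24.3% of all genes tested were higher, and in all 8 the libraries of both days did not overlap, where this held for 28.4% of all genes. As these 8 entered only through day 9, their calls and their lack of overlap give no support of their own.

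HOXB1 reached 99.0 TPM in the plate 2 library, 188 in the plate 6 library and 78.8 in the library with no plate. It held 0 counts on day 4 and 5187 on day 9, which makes it at least 2104-fold higher against the floor of 3 counts over the group. HOXB1 works in the hindbrain and in early mesoderm, and each of the 3 libraries of day 9 held more of it than of any other member. HOXB2, its neighbour in the cluster, stood at 57.6, 89.0 and 47.2 TPM in the same libraries. Its counts of 4 on day 4 and 2616 on day 9 gave a ratio of 796 in CPM (95% exact interval 310 to 2923). HOXB3, counted 13 times on day 4 and 2599 times on day 9, gave a ratio of 243 (142 to 457). These intervals cover counting error only.

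HOXA2, which patterns the second branchial arch, stood at 1.24, 2.90 and 0.826 TPM in the plate 2, plate 6 and unnumbered libraries and was at least 28.0-fold higher than on day 4. HOXB4, from 1 count to 1106, gave a ratio of 1346 with a wide interval (241 to 53198). HOXB5, from 1 to 248 counts, gave 302 (53.7 to 11966), and HOXB7, from 0 to 125 counts, was at least 50.7-fold higher.

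Within the HOXB cluster the levels of day 9 fell from HOXB1 to HOXB3. Mean levels were 122 ± 58.1 TPM for HOXB1, 64.6 ± 21.8 for HOXB2, 20.2 ± 7.98 for HOXB3 and 17.5 ± 12.5 for HOXB4 (SD, n = 3). HOXB1 exceeded HOXB2, and HOXB2 exceeded HOXB3, in each of the 3 libraries. The ranges of HOXB2 and HOXB3 did not overlap, while those of HOXB1 and HOXB2 and those of HOXB3 and HOXB4 did. From HOXB5 to HOXB9 the means lay between 4.87 and 7.26 TPM with SDs between 4.72 and 8.48, so no order among these 5 neighbours exceeded the spread. HOXB13, which lies apart from the rest of the cluster, was lowest at 0.330 ± 0.298 TPM. The level of HOXB4 depends on its length, which the deposited values imply to be 3757 bases, while its exons in GENCODE v44 cover 2002. In plate 6 it already stood above HOXB3, at 31.5 against 29.1 TPM. At the shorter length, an alternative chosen after seeing the data, its mean on day 9 was 32.8 ± 23.4 TPM (SD, n = 3), above HOXB3 in all 3 libraries, so the order of these 2 genes is not settled.

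**Figure D2:**
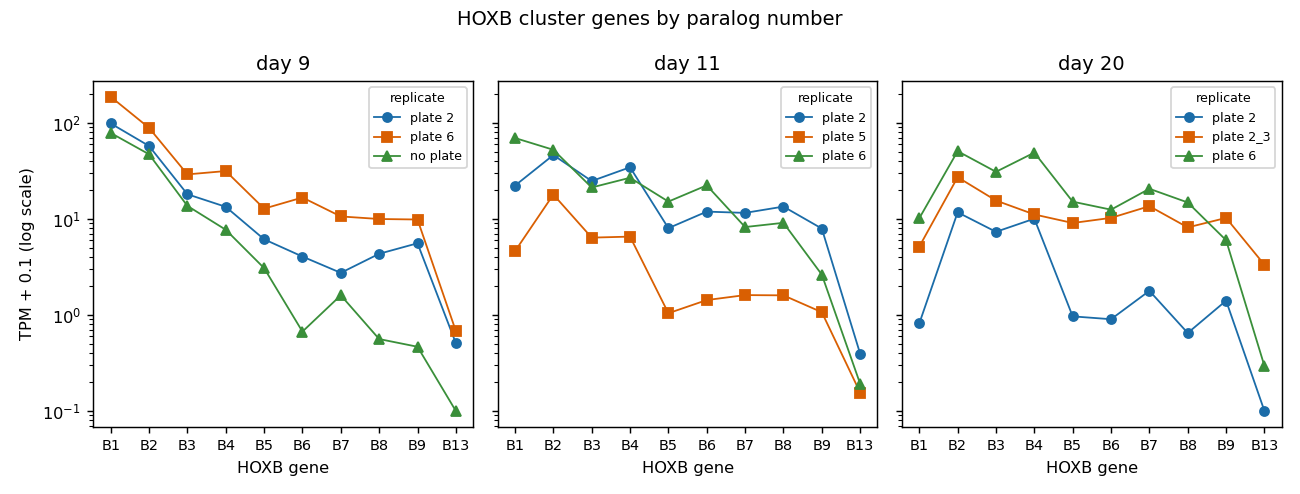
Level of the 10 HOXB genes (TPM + 0.1, log axis) by paralog number in the 3 libraries of days 9, 11 and 20. On day 9 each line falls from HOXB1 to HOXB3, and on day 20 each line has HOXB1 below HOXB2 to HOXB7.

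The HOXC and HOXD clusters stayed low on day 9. Their summed levels were 4.56, 8.49 and 0.411 TPM for HOXC and 3.65, 2.76 and 0.414 TPM for HOXD in the plate 2, plate 6 and unnumbered libraries. No member of either cluster was detected on day 9. HOXC8, a gene of the thoracic region, was the highest HOXC member in a library with 3.00 TPM in plate 6, and it held 0 counts in the library with no plate. HOXD1, the highest of HOXD, stood at 1.44, 0.278 and 0.0685 TPM, and 60.1% of its exon bases overlap other genes. HOXC12 was the only member with no count on day 9, where 38 members held at least 1.

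On day 11 the number of detected members was 11, of which 4 were anterior, 5 central and 2 posterior. HOXB8, HOXB9 and HOXA13 were detected on day 11 and not on day 9, and HOXA2 was detected on day 9 alone. HOXB8, HOXB9 and HOXA13 each missed the cutoff on day 9 in 1 library alone. HOXB8 and HOXB9 held 7 counts each in the unnumbered library, and HOXA13 held 6 in plate 2. The mean of HOXB9 was 5.22 TPM on day 9 and 3.79 TPM on day 11. The comparison of days 9 and 11 asks which genes mark the step to committed cardiac progenitors. Of 16 members tested, edgeR called 0 higher and 0 lower at an adjusted p under 0.05, against 1.39% and 1.00% of all genes tested. At an unadjusted p under 0.05 there were 2 members, against 3517 of all 20679 genes tested. DESeq2 called 1 member higher (HOXA13) and 1 lower, and limma on log2 TPM called 0. The share of all genes called by these tools is not given here. The median log2 fold change of the tested members was 0.25, beside 0.00 over all genes, with 9 positive and 7 negative values.

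HOXA13 was the member with the largest positive value. This most posterior HOXA gene, known from the limb, hindgut and genital tubercle, stood at 0.239, 0.90 and 0.346 TPM on day 9 in the plate 2, plate 6 and unnumbered libraries. Day 11 brought values of 1.58, 1.63 and 3.93 TPM in plates 2, 5 and 6. The libraries of the 2 days did not overlap, which held upward for 12.2% and downward for 9.86% of all genes tested. Its log2 fold change was 2.25 (SE 0.57, adjusted p = 0.0965 by edgeR), and the adjusted p lay between 0.00358 and 0.341 over 16 alternatives, of which 4 called it. Its neighbours HOXA9, HOXA10 and HOXA11 were not detected on day 11. HOXA13 shares 1.7% of its exon bases with HOTTIP on the opposite strand.

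HOXB1 did not pass the threshold between days 9 and 11. Its levels of 22.2, 4.52 and 69.8 TPM in plates 2, 5 and 6 on day 11 all lay below the 78.8 to 188 TPM of day 9. The log2 fold change was -1.93 (SE 0.84, adjusted p = 0.303), and over 16 alternatives the adjusted p lay between 0.00702 and 0.659. HOXB2, at 46.3, 17.9 and 52.6 TPM on day 11, had a value of -0.76 (SE 0.41, adjusted p = 0.405). The other tested HOXB members, HOXB3 to HOXB9, had values between -0.47 and 0.78 with standard errors between 0.49 and 1.17.

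By day 20 HOXB1 was lower than on day 9. Its levels were 0.717, 5.05 and 10.1 TPM in plates 2, 2_3 and 6, against at least 78.8 TPM in every day 9 library. The log2 fold change was -4.68 (SE 0.86, adjusted p = 0.0189 by edgeR), and of the 17 members tested it alone passed in this fit, against 3.31% of all genes called lower and 6.72% called higher. It was also the only member whose days did not overlap downward, against 11.2% of all genes, and 0 members did so upward, against 21.7%. Without the plate 2_3 library the value was -4.54 (adjusted p = 0.0368), and with the sequencing lane as a block it was -5.18 (adjusted p = 0.0160). The call was lost without any one of the day 9 libraries, with adjusted p = 0.0738 without plate 2, 0.0617 without plate 6 and 0.0737 without the unnumbered library, while the log2 fold change stayed between -4.92 and -4.34.

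**Figure D3:**
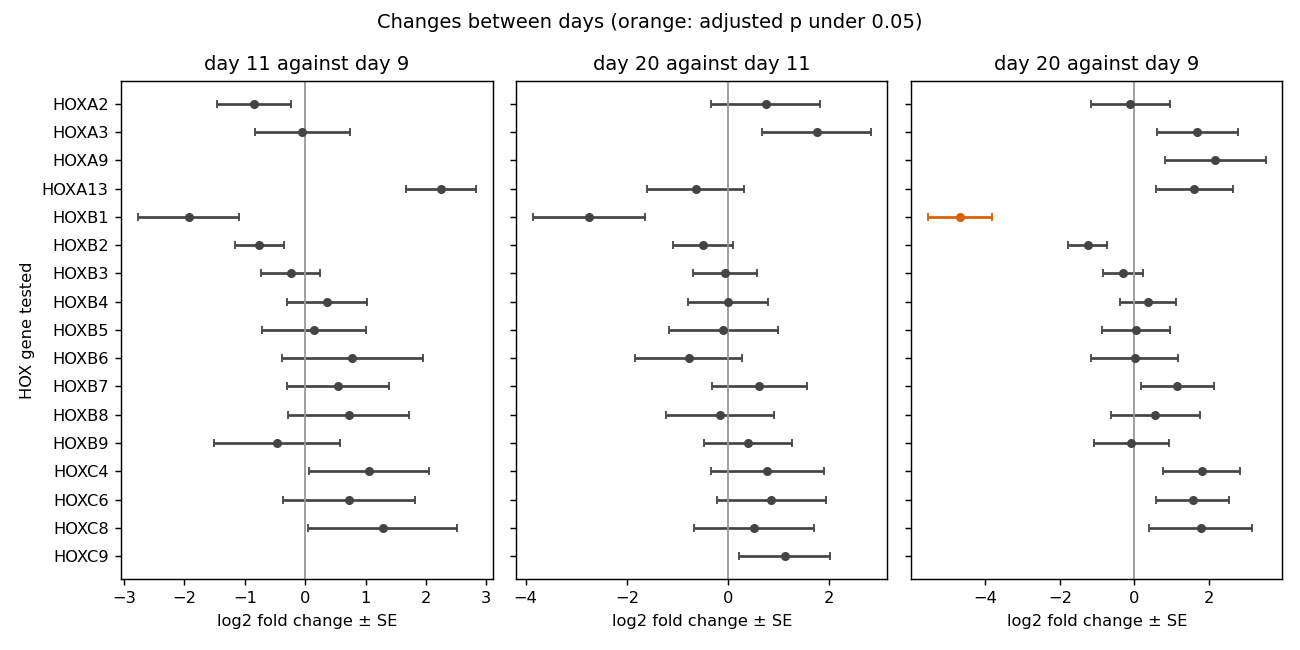
Log2 fold change with its standard error for the HOX genes drawn, tested between days 11 and 9, 20 and 11, and 20 and 9 (edgeR, 3 libraries per day). HOXB1 on day 20 against day 9 (-4.68) is the only value with an adjusted p under 0.05.

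No other HOXB gene passed the test between days 9 and 20. HOXB2 had a log2 fold change of -1.25 from day 9 to day 20 (SE 0.53, adjusted p = 0.180), which became -2.13 (adjusted p = 0.0265) without the plate 6 library. HOXB3 to HOXB9 had values between -0.30 and 1.16 with adjusted p between 0.485 and 0.998. HOXB4, at 13.3, 31.5 and 7.63 TPM on day 9, stood at 9.99, 11.1 and 49.1 TPM on day 20 in plates 2, 2_3 and 6. With standard errors between 0.53 and 1.19 for HOXB3 to HOXB9, a doubling or halving of most of these genes could not be told from the spread between replicates. The comparisons of days 11 and 20 with day 9 share the day 9 libraries.

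From day 11 to day 20, 17 members were tested and edgeR called 0 higher and 0 lower, against 1.12% and 0.435% of all genes. At an unadjusted p under 0.05 there was 1 member, against 3564 of all 21398 genes tested. This was HOXB1, with a log2 fold change of -2.75 (SE 1.1, adjusted p = 0.262), and limma on log2 TPM called 0. DESeq2 called HOXD10 higher, whose level was 7.20 TPM in the plate 2_3 library and at most 0.667 TPM in the others of day 20. Without plate 2_3 DESeq2 gave HOXD10 no adjusted p and called 0 members higher on day 20 than on day 11. For 0 members did the libraries of days 11 and 20 separate, against 14.5% of all genes upward and 7.44% downward.

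The makeup of HOXB transcripts differed from day 9 to day 20 while their summed level overlapped between days. The sum was 211, 398 and 153 TPM on day 9 in the plate 2, plate 6 and unnumbered libraries. It was 181, 41.5 and 228 TPM on day 11 in plates 2, 5 and 6, and 34.8, 113 and 210 TPM on day 20 in plates 2, 2_3 and 6. The share of HOXB1 in this sum, a ratio within each library that was chosen after its values were seen and is given with no test, was 47.0%, 47.2% and 51.5% on day 9. It was 12.3%, 10.9% and 30.7% on day 11, and 2.06%, 4.47% and 4.80% on day 20, with no overlap between any of the days. On day 9 HOXB1 was the first of the HOXB genes in all 3 libraries, on day 11 it was the first in plate 6 alone, and on day 20 it lay below each of HOXB2 to HOXB7 in all 3 libraries.

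The share of the central genes was larger on days 11 and 20 than on day 9. HOXB4 to HOXB8 made up 14.3%, 20.5% and 8.59% of the HOXB sum on day 9, 43.8%, 28.3% and 35.8% on day 11, and 39.9%, 45.9% and 53.3% on day 20. Day 9 did not overlap with the later days, which overlapped each other. The mean paralog number of HOXB transcripts, weighted by TPM, was 2.21 ± 0.34 on day 9, 3.37 ± 0.44 on day 11 and 4.18 ± 0.67 on day 20 (SD, n = 3). As a share rises when another falls, the central share is not independent of that of HOXB1.

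**Figure D4:**
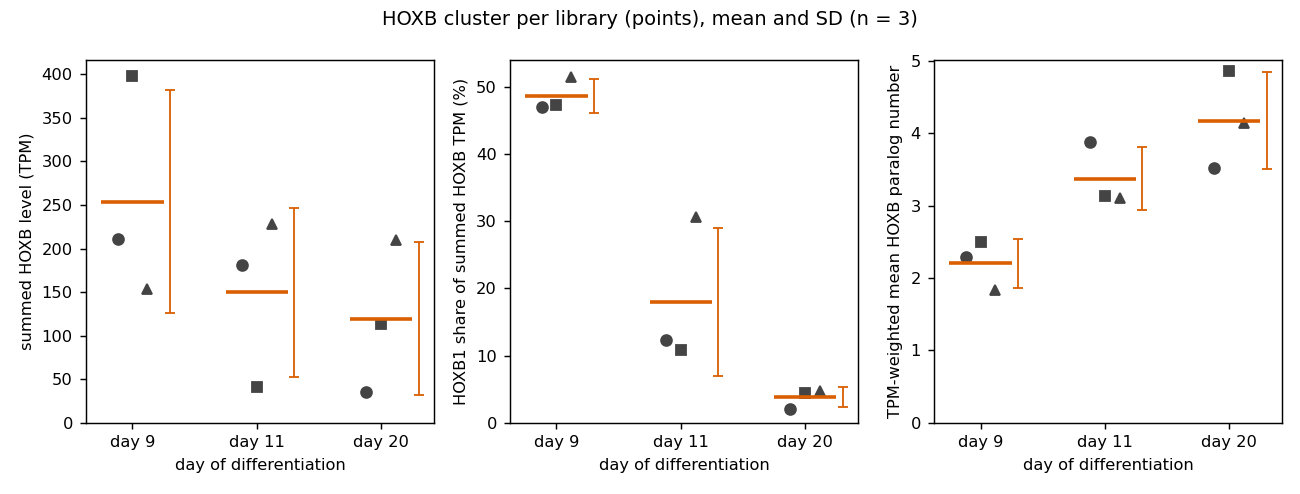
Summed HOXB level (TPM), HOXB1 share of that sum (%) and TPM-weighted mean paralog number in each library of days 9, 11 and 20, with bars for the mean and the SD of 3 libraries. The summed levels overlap between days, while the HOXB1 share falls from 47.0% or more on day 9 to 4.80% or less on day 20 without overlap.

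Posterior HOXB transcripts remained a small part. HOXB9 and HOXB13 together made up at most 4.51% of the HOXB sum in any library of days 9 and 11, and 3.76%, 11.9% and 2.91% on day 20 in plates 2, 2_3 and 6. HOXB9 stood at 5.49, 9.79 and 0.367 TPM on day 9, at 7.86, 0.970 and 2.54 TPM on day 11, and at 1.31, 10.2 and 5.92 TPM on day 20. Its days overlapped throughout. The level of HOXB13 reached 3.24 TPM in plate 2_3 and was at most 0.581 TPM in all other libraries.

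The HOXA, HOXC and HOXD sums of day 20 rested largely on the plate 2_3 library. HOXA summed to 1.37, 40.3 and 14.7 TPM in plates 2, 2_3 and 6, HOXC to 2.26, 43.6 and 22.5 TPM, and HOXD to 0.693, 32.6 and 5.39 TPM. The means of day 20 were 18.8 TPM for HOXA, 22.8 for HOXC and 12.9 for HOXD, and without plate 2_3 they were 8.04, 12.4 and 3.04 TPM. Day 9 means were 14.7 TPM for HOXA, 4.49 for HOXC and 2.27 for HOXD, so HOXA lay above day 9 with that library and below it without. All 39 members held a count on day 20, yet 9 were detected: HOXB1 to HOXB7, HOXB9 and HOXC6. The highest HOXC mean was that of HOXC8, at 0.426, 6.75 and 9.51 TPM in plates 2, 2_3 and 6. HOXC4, the most anterior HOXC gene, stood at 0.355, 6.27 and 5.11 TPM, and HOXC10, the highest posterior one, at 0.276, 7.98 and 0.963 TPM. HOXC8 and HOXC4 were thus present in both plate 2_3 and plate 6, and HOXC10 mainly in plate 2_3.

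HOXA3 and HOXA5 showed the latter pattern. HOXA3 stood at 0.224, 7.10 and 1.77 TPM and HOXA5 at 0.189, 6.72 and 1.05 TPM in plates 2, 2_3 and 6. In HOXD the highest means belonged to HOXD12, at 0 in plate 2, 8.14 TPM in plate 2_3 and 1.33 TPM in plate 6, and to HOXD10. HOXD12 and HOXD10 are known from the distal limb.

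The depth of reads outside expressed genes was therefore set beside these values. Taken were 173 autosomal protein-coding genes of at least 2000 bases with at most 2 counts in all over the 12 libraries of days 0 to 11. In the plate 2_3 library 100% of them held a count, with a median of 11.0 reads per kilobase and a 95th percentile of 22.4. In plate 6 the share was 75.7% with a median of 0.679 and a 95th percentile of 3.48, and in plate 2 it was 18.5% with a median of 0.0 and a 95th percentile of 1.00. In plate 2_3 15 of 39 members exceeded the 95th percentile, of which 8 belonged to HOXB, 2 to HOXA, 3 to HOXC and 2 to HOXD. The other members of that library lay at or below this percentile of the silent genes. Among these were HOXB1, at 19.8 reads per kilobase, and HOXC6, at 18.6, which both count as detected on day 20. In plates 2 and 6 both genes exceeded the percentile. In plate 6, 25 members exceeded the percentile, 9 of them of HOXB, and in plate 2, 20 did so, again 9 of HOXB. The part of this read depth in the HOXC and HOXD levels was not tested. With the median of the silent genes subtracted, the HOXB1 share of day 20 was 2.65% in plate 2_3 and 4.76% in plate 6.

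**Figure D5:**
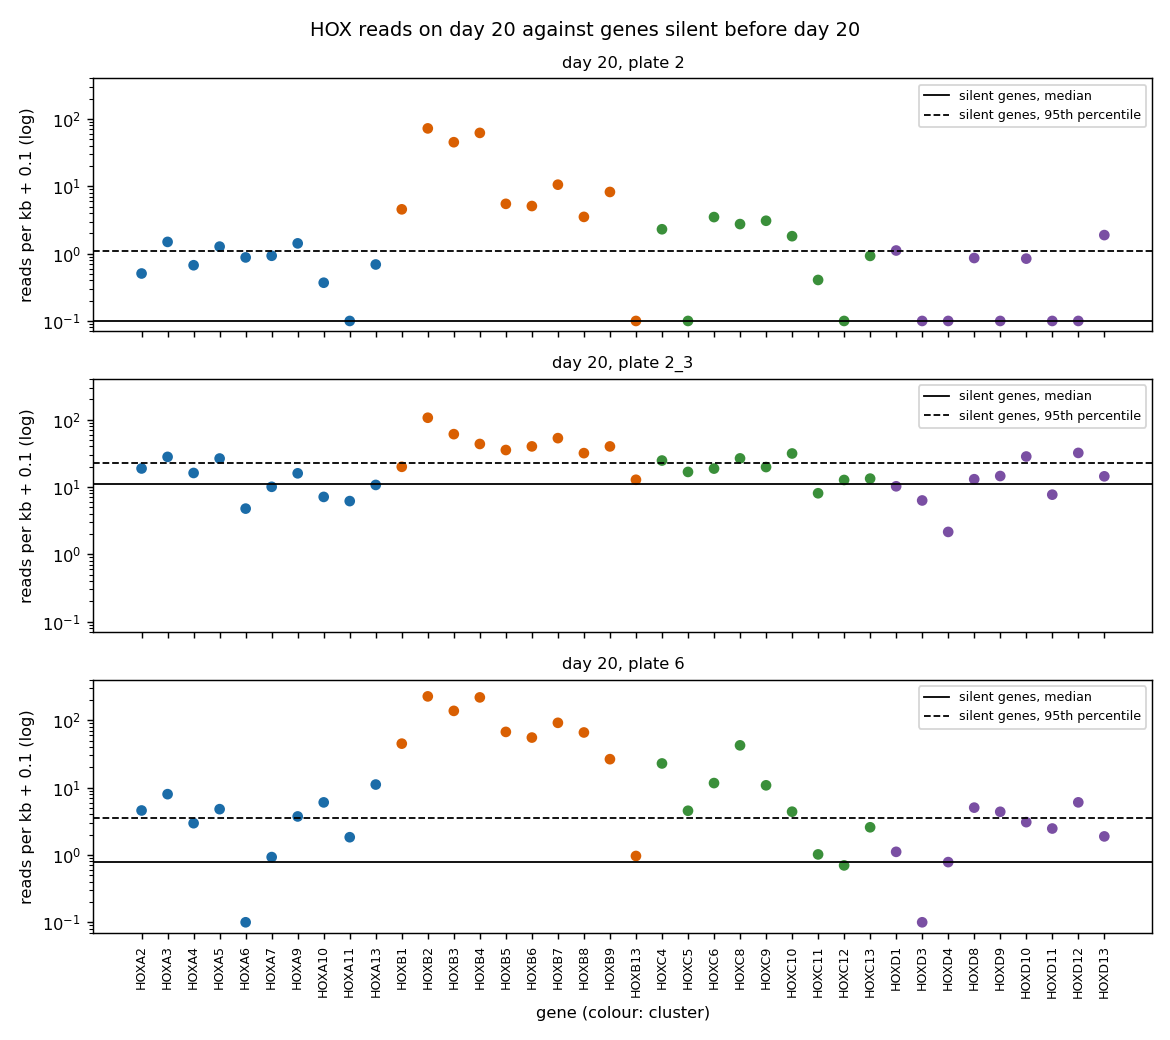
Reads per kilobase (+ 0.1, log axis) of 38 HOX genes in the 3 libraries of day 20, coloured by cluster, with the median and 95th percentile of 173 genes silent before day 20. HOXB2 to HOXB9 lie above the dashed line in all 3 libraries, while in plate 2_3 most HOXA, HOXC and HOXD genes lie at or below it.

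HOX levels differed strongly between replicates of a day, and the members moved together. On day 9 all 9 detected members were highest in plate 6 and lowest in the library with no plate, with a ratio of highest to lowest between 1.89 and 29.2 and a median of 4.13. The extreme was HOXB6, at 3.97, 16.7 and 0.572 TPM. On day 11, 10 of 11 detected members were lowest in plate 5 (ratios between 2.49 and 16.8, median 7.60). On day 20 all 9 were lowest in plate 2, and 7 were highest in plate 6 (ratios between 4.27 and 17.4, median 8.71). Genes of 1 library share its cells and its depth, so this common order is not evidence from independent measurements.

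Marker genes of cell types differed between the same libraries. On day 11 the plate 5 library, lowest in HOX transcripts, held 21015 TPM of the 6 cardiac muscle markers against 5766 in plate 2 and 3664 in plate 6, and 1030 TPM of the 6 mesenchyme markers against 2843 and 6099. On day 20 the plate 6 library, in which 7 members were highest, held 4826 TPM of cardiac muscle markers against 21362 and 21056 in plates 2 and 2_3, and 21818 TPM of mesenchyme markers against 2522 and 1123. On day 9 the order was another one. Plate 6, highest in all detected members, was also highest in cardiac muscle markers (1272 TPM against 428 and 207) and in mesenchyme markers (1936 against 615 and 650).

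Endoderm and liver markers were highest in plate 6 and lowest in the unnumbered library on day 9 (471, 1070 and 399 TPM in the plate 2, plate 6 and unnumbered libraries) and lowest in plate 5 on day 11 (1263, 668 and 1650 TPM in plates 2, 5 and 6), as the HOX genes were. On day 20 they summed to 16344, 624 and 18373 TPM in plates 2, 2_3 and 6, lowest in another library than the HOX genes. Of the 12 marker lists, 7 had both their highest and lowest library of day 9 where most detected HOX genes had theirs. For day 11 this held for 7 lists and for day 20 for 3. The lowest library alone matched for 7, 9 and 6 lists on days 9, 11 and 20. Of 5 neural and neural crest markers in the tables, 4 (SOX1, PAX6 and NEUROG2 among them) stayed under 1 TPM in all libraries of days 9 and 11, when HOXB1 was highest. All 5 summed to 2.24, 2.93 and 1.32 TPM on day 9 in the plate 2, plate 6 and unnumbered libraries. On day 11 they summed to 2.34, 2.10 and 2.63 TPM in plates 2, 5 and 6. This list was thus among the 7 that matched the HOX genes in both libraries on each of these days. The sum of the limb and trunk mesoderm markers was 15.6, 3.93 and 30.1 TPM on day 11 in plates 2, 5 and 6, lowest where the HOX genes were lowest. The part of cell makeup in the HOX levels was not tested, and in bulk RNA fewer expressing cells cannot be told from less RNA per cell.

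Noncoding RNAs of the clusters were also counted. Of 18 in the tables, 4 were tested between days 4 and 9, namely HOTAIRM1, HOXB-AS1, HOXB-AS2 and HAGLR. These could pass the filter on low counts only through day 9, so that their calls as higher, where 24.3% of all genes were higher, give no support of their own. HOTAIRM1, a noncoding RNA of the HOXA cluster, held 0 counts on days 0 and 4 and stood at 12.99, 13.5 and 3.98 TPM on day 9 (adjusted p = 0.00117 by edgeR). HOXB-AS1, antisense to HOXB2 and HOXB3, stood at 29.3, 33.1 and 27.7 TPM on day 9 and fell to 10.9, 11.7 and 8.91 TPM on day 11 (log2 fold change -1.57, SE 0.20, adjusted p = 0.0168). Its replicates were closer to each other than those of any detected HOX gene on these days. Whether reads were assigned by strand is not stated, so antisense pairs may share counts. Of the 39 members, 25 share at least 1 exon base with another gene and 20 share one with a gene on the opposite strand, while HOXB1, HOXB7, HOXB8 and HOXB9 share none.

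Of 11 genes that flank the clusters, 10 were in the tables and 7 were tested between days 4 and 9. EVX1, a homeobox gene beside HOXA13, held 0 counts on day 4 and stood at 2.60, 1.80 and 2.34 TPM on day 9 (adjusted p = 0.000174 by edgeR). EVX1 could pass the filter on low counts only through day 9, so its call gives no support of its own. SKAP2, at the anterior end of HOXA, rose by a log2 fold change of 1.36 (SE 0.31), and CALCOCO1, near HOXC, rose by 1.35 (SE 0.20). TTLL6, beyond HOXB13, fell (-2.55, SE 0.33). Called were thus 3 higher and 1 lower, with a median log2 fold change of 0.35 beside 0.01 over all genes, where 24.3% of all genes were higher and 24.7% lower.

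The cofactors of HOX proteins changed in the same interval. PBX, MEIS and PKNOX proteins, the TALE homeodomain family, bind DNA together with HOX proteins, and 7 of 9 were higher on day 9 than on day 4 with 0 lower (median log2 fold change 1.89), beside 24.3% of all genes higher and 24.7% lower. MEIS1 was at most 0.232 TPM on day 4 and stood at 89.7, 108 and 107 TPM on day 9, a log2 fold change of 9.32 (SE 0.27). MEIS2 moved from at most 0.195 TPM to 47.7, 56.4 and 48.6 TPM (8.21, SE 0.17), and PBX3 from 50.5, 42.1 and 45.3 TPM to 239, 220 and 166 TPM (2.20, SE 0.17). The replicates of MEIS1 and MEIS2 lay close together on day 9, unlike those of the HOX genes. By edgeR, MEIS1 was the only 1 of the 9 cofactors called lower on day 11 than on day 9 (-0.98, SE 0.18, adjusted p = 0.0420), beside 1.00% of all genes. The same held for day 20 against day 9 (-1.60, SE 0.25, adjusted p = 0.0119), beside 3.31% of all genes. PBX3 narrowly missed the threshold there (-1.50, SE 0.39, adjusted p = 0.0520 by edgeR). DESeq2 called PBX3 lower on day 20 than on day 9 with plate 2_3 (-1.61, adjusted p = 0.00716) and without it (-1.34, adjusted p = 0.00841).

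CDX genes, homeobox factors known to drive central and posterior HOX genes, went in opposite directions. CDX2 was at most 0.0407 TPM on day 4 and stood at 1.92, 6.44 and 0.492 TPM on day 9 (adjusted p = 0.00406 by edgeR), highest in the plate 6 library as the HOX genes were. With 2 counts on day 4, CDX2 could pass the filter on low counts only through day 9, so this call gives no support of its own. It stood at 27.0, 12.9 and 17.4 TPM on day 20, where the difference from day 9 gave an adjusted p of 0.0863. CDX4 fell from 5.98, 6.54 and 5.46 TPM on day 4 to at most 0.267 TPM on day 9 (log2 fold change -5.19, SE 0.41). The related PDX1 was higher on day 20 than on day 9 (4.64, SE 1.09, adjusted p = 0.0405), with 2.51, 15.5 and 1.53 TPM in plates 2, 2_3 and 6, and without plate 2_3 the value was 3.34 (SE 0.73, adjusted p = 0.0304 by edgeR). With 8 counts on day 9, PDX1 could pass the filter only through day 20. CDX1, GSX1 and GSX2 were not tested between days 4 and 9.

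Retinoid genes were mixed. Between days 4 and 9, 5 of 14 rose (ALDH1A2, RARA, RARB and STRA6 among them) and 4 fell (CYP26A1, CYP26C1, DHRS3 and CRABP1), with a median log2 fold change of 0.10 and 24.3% of all genes higher and 24.7% lower. CYP26A1, the enzyme that degrades retinoic acid, stood at 449, 242 and 82.6 TPM on day 4 and at 12.4, 13.4 and 26.4 TPM on day 9 (-3.86, SE 0.64). RARB, a retinoic acid receptor and itself a target of retinoic acid, rose from 1.14, 2.09 and 1.97 TPM to 53.0, 41.2 and 69.6 TPM (5.03, SE 0.32). ALDH1A2, which makes retinoic acid in the embryo, rose by 1.89 (SE 0.40) and stayed at or below 0.910 TPM on day 9. On day 20 against day 9, edgeR called 3 of 14 lower and 1 higher, beside 3.31% of all genes lower and 6.72% higher. The lower ones were RARB (-1.76, SE 0.32, adjusted p = 0.0186), CYP26A1 (-3.18, SE 0.58, adjusted p = 0.0185) and CRABP1 (-2.87, SE 0.50, adjusted p = 0.0158). ALDH1A1 was higher (6.61, SE 1.42, adjusted p = 0.0306). CYP26A1 was already lower on day 11 than on day 9 (-3.31, SE 0.43, adjusted p = 0.0173 by edgeR). Day 9 libraries are common to these comparisons and to that of HOXB1.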

How the data were processed

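The authors made stranded, ribosomal RNA-depleted libraries of total RNA, aligned the reads with STAR 2.5.2b to GRCh38 (Ensembl release 79), counted them with featureCounts 1.5.1 per the processing notes, and removed ribosomal and mitochondrial genes. Whether counting used strand is not given in the sources used here. The authors deposited raw counts per gene and TPM, with a deposited sample table of RNA integrity (a score), the fraction of uniquely mapped reads and the sequencing lane. Labels gave the days, and day 9 stands where the methods list day 7.

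Each pair of days (3 libraries each) was tested on the counts in R 4.3.3 with edgeR 4.0.16 (TMM, filterByExpr at min.count 10, robust quasi-likelihood test, two-sided, Benjamini-Hochberg over all genes, threshold 0.05). The standard error is the log2 fold change divided by the square root of F. Levels are deposited TPM. Coordinates and symbols come from GENCODE v44, promoters from RefSeq. The methods were tested on simulated data. Alternatives used DESeq2 1.42.0, limma 3.58.1 on log2(TPM + 1) and log2(TPM + 0.1), other scalings and filters, all 15 libraries, the plate or lane as a block, each library left out, and a threshold of 0.01. Values were given in full for the 3 highest members of a cluster at its highest day, members past the threshold and the highest posterior members. Members and lists were chosen with earlier results of these data known. The 6 microRNA hairpins listed were not analysed here. The plate numbers are shared between days, but the labels do not say what a plate number stands for. A few genes, a HOX member among them, are not reported here by name.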

Additional observations from a re-analysis of the deposited data

How the results depend on the processing

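No direction was reversed. The count of HOX genes higher on day 9 than day 4 differed with the number tested. It was 8 of 8 by edgeR, 19 of 38 by DESeq2 and 18 of 38 with no filter on low counts. With all 15 libraries in one fit it was 15 of 19, and on log2(TPM + 0.1) it was 14 of 28. Leaving out 1 library gave between 8 and 15, with 8 to 17 tested. The share of all genes called under each alternative is not given here. HOXB7 lost its call with no filter (adjusted p = 0.0940). Between days 9 and 11, 1 member (HOXA13) was higher by DESeq2, with no filter, and with the plate or the lane as a block, and 1 was lower by DESeq2. Between days 11 and 20, DESeq2 called 1 higher (HOXD10). Between days 9 and 20, DESeq2 called 2 higher (HOXC10 and HOXD10; 0 without plate 2_3, where it gave both no adjusted p, an alternative added after seeing the data), and leaving out 1 library gave 0 to 1 higher (HOXC10, without plate 2 of day 20) and 0 to 2 lower (HOXB1 and HOXB2, without plate 6 of day 20). HOXB1 was not called on log2(TPM + 0.1), which left 0 lower, nor at an adjusted p under 0.01, which also left 0. The causes were not tested.

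With the plate as a replicate block, 3 members were lower on day 11 than day 9, among them HOXB1 (log2 fold change -1.81) and HOXB2 (-0.57), and HOXA13 was higher (2.33). In this fit the unnumbered library of day 9 and the plate 5 library of day 11 each formed a block of their own. The contrast therefore rested on plates 2 and 6 alone. Deviations of libraries with the same plate correlated at 0.156 and 0.39 for days 9 and 11, between -0.192 and 0.395 for days 11 and 20, and between -0.177 and 0.243 for days 9 and 20, so the numbers are not shown to pair the samples. Both the block and these correlations counted plate 2_3 as plate 2. No other member's call differed under the block among days 9, 11 and 20. It was not fitted for days 0 and 4. Several settings gave no value for day 4 against day 0, where no member passed the filter. The HOXB1 share of day 20, 3.78% on average, was 3.16% with silent-gene reads subtracted and between 3.27% and 4.64% without 1 library, alternatives chosen after seeing the data. Low counts limit what can be said of the HOXC and HOXD genes, of which HOXC6 alone, on day 20, reached 10 counts in all 3 libraries of a day. The part of sequencing depth in these low counts was not tested.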

Other observations

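Polycomb proteins keep HOX clusters silent in stem cells, and between days 4 and 9, 7 of 13 Polycomb genes were higher (EZH1, EED, RING1, RNF2, BMI1 and CBX7 among them) and 3 lower (JARID2, CBX2 and CBX6) by edgeR, with a median log2 fold change of 0.44 beside 0.01 over all genes, of which 24.3% were higher and 24.7% lower. JARID2, which recruits the complex to its targets in stem cells, fell by 1.45 on the log2 scale (SE 0.19). CBX2 stood at 145, 131 and 133 TPM on day 4 and at 30.0, 19.7 and 21.6 TPM on day 20, and it was lower on day 20 than on day 9 (-2.25, SE 0.31, adjusted p = 0.00846). EZH1 and EED rose by 0.46 (SE 0.15) and 0.44 (SE 0.14).

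Of 7 Trithorax genes, whose products counter Polycomb, KDM6B and ASH2L were higher and KMT2A and WDR5 lower on day 9 than on day 4. Among all genes tested, 24.3% were higher and 24.7% lower. KMT2A, the methyltransferase best known for HOX maintenance, had a log2 fold change of -0.72 (SE 0.14), and ASH2L of 1.57 (SE 0.20). ASH2L was lower again on day 20 than on day 9 (-1.58, SE 0.38, adjusted p = 0.0431 by edgeR). LNPK, which lies beyond the HOXD cluster, was higher on day 20 than on day 9 (1.61, SE 0.29, adjusted p = 0.0180).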
